A study of Mus musculus with 48 samples.

Results

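Homeostatic astrocyte genes were followed through the first weeks after kainate-induced status epilepticus in the mouse dentate gyrus. The 10 genes, of 55357 in the count table, serve glutamate and GABA handling (Slc1a2, Slc1a3, Glul, Slc6a11), gap junction coupling (Gja1, Gjb6), water transport (Aqp4) and astrocyte identity (Aldh1l1, Ntsr2, Lgi4). They were listed by these functions with earlier results of the same libraries known. Aldh1l1 in particular was selected on its small p-value in the contralateral tissue at day 3 and on its larger ipsilateral change at day 7, so its values in every comparison that holds one of those contrasts are given as a description without a test. Counts of called genes include Aldh1l1 there unless stated otherwise, and are no test of it. Levels are given as CPM, the counts scaled to a common library size, and log2 fold changes are of kainate over saline with their standard error (SE). All 10 were among the 21390 genes that passed the filter on low counts, with 544 to 100066 reads per library.

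RNA was sequenced from the dorsal dentate gyrus of 24 wild-type C57BL/6J mice, given as 6 to 8 weeks old in the series description and as somewhat older in the methods, with 2 males and 2 females in each group. Every mouse had 1 stereotactic injection into the hippocampus, of kainate or of saline, and was taken on day 3, 7 or 14. The injected side is the epileptogenic zone (EZ) and the opposite side of the same mouse the peri-ictal zone (PIZ), which gives 12 groups of 4 libraries, 48 in all, with 17762656 to 25712975 assigned reads each. The saline mice also had the needle track on the EZ side, every kainate mouse had an observed behavioural seizure, and the dissected tissue holds every cell type of the region.

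Astrocytes clear glutamate and GABA from the synapse, turn glutamate into glutamine, buffer potassium and water at their endfeet around vessels, and share ions through gap junctions. In reactive gliosis after seizures or injury they enlarge and switch on intermediate filament and inflammatory genes, and the genes of these resting functions are known to be lost or kept to different degrees. In bulk tissue, fewer astrocytes and less RNA per astrocyte cannot be told apart.

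The 10 genes did not move as a set. In the EZ at day 3, Aldh1l1 and Aqp4 were upregulated while Ntsr2, Slc6a11, Slc1a2 and Glul were downregulated. At day 7 the losses were no longer past the threshold, and Aqp4, Slc1a3 and Lgi4 were upregulated, as was Aldh1l1 by description. At day 14 Aqp4 alone passed in the EZ, and not without mouse 27. In the PIZ, changes past the threshold were found at day 3 (Aqp4 and Lgi4 up, Slc6a11 down, with Aldh1l1 up by description) and in none of the 10 genes at days 7 and 14. A gene was called when the Benjamini-Hochberg adjusted p of edgeR's quasi-likelihood test was below 0.01 and the change exceeded 1.5-fold.

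**Figure D1:**
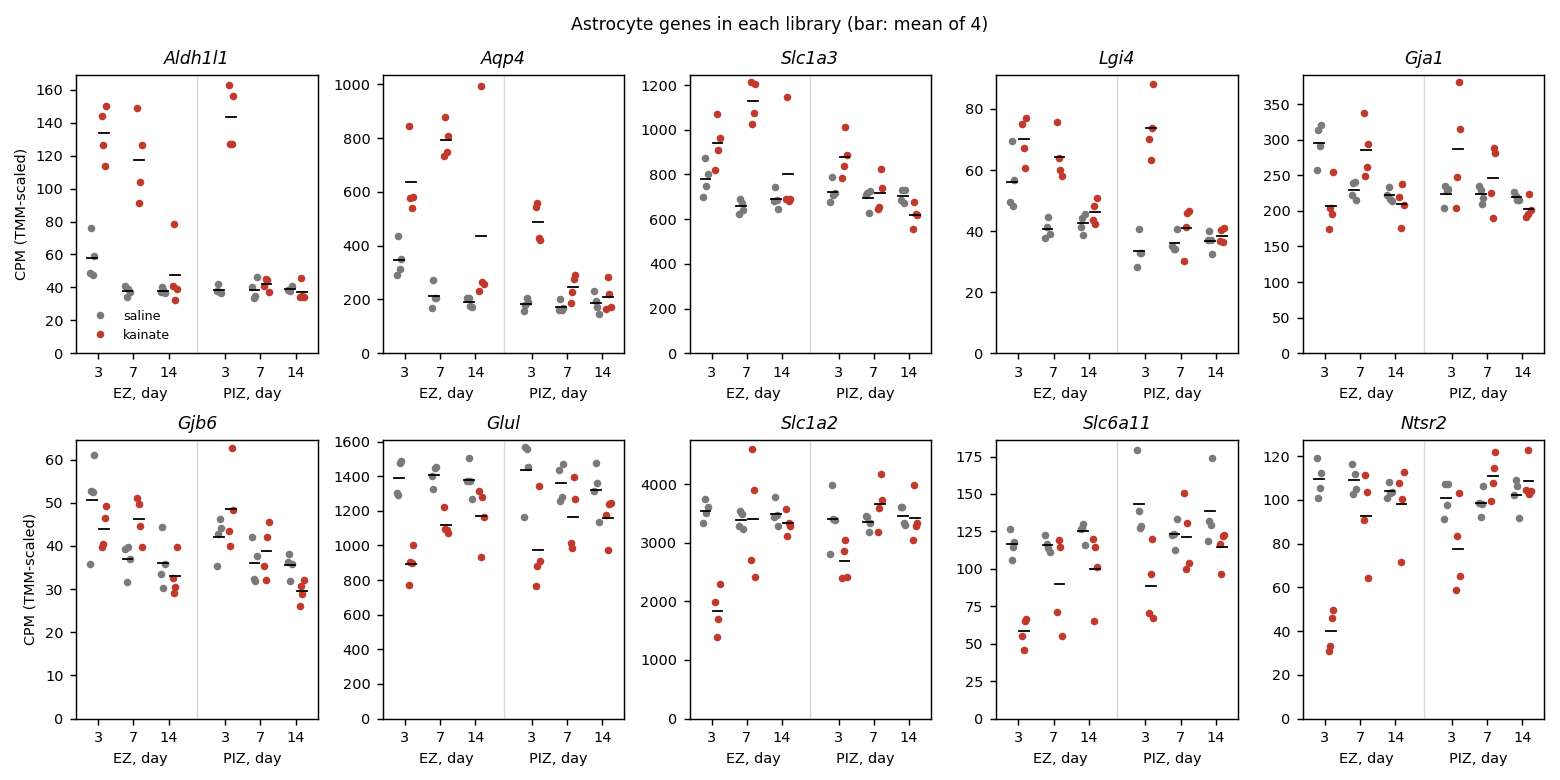
CPM (linear axis from 0) of each gene in all 48 libraries, by side, day and treatment. Each point is 1 library and each bar the mean of 4; in the EZ at day 3 the kainate points of Ntsr2 (31.1 to 49.5) lie below all saline points (101 to 119), while those of Aldh1l1 (114 to 150) lie above them (47.7 to 76.2).

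In the 24 saline libraries, both sides of each of 12 mice, the genes spanned a wide range of levels, given here as RPKM, the CPM per kilobase of exon. Glul (350 ± 29.2, SD, n = 24) and Slc1a2 (246 ± 16.5) were the highest, followed by Slc1a3 at 48.5 ± 3.90. Ntsr2 (33.2 ± 2.30), Aqp4 (32.9 ± 10.7), Slc6a11 (25.1 ± 3.42) and Gja1 (19.2 ± 2.48) formed a middle group in which each gene overlapped the next in range. Gjb6 (10.1 ± 1.95), Lgi4 (6.80 ± 1.47) and Aldh1l1 (4.89 ± 1.08) were the lowest, again with overlapping neighbours. Aldh1l1 was the lowest of the 10 in every saline group, and its mean RPKM of 15.7 placed it sixth in the EZ of kainate mice at day 3, where Ntsr2 had a mean RPKM of 12.8 beside 34.9 in the saline EZ.

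Aldh1l1 (plus strand of chromosome 6, gene ENSMUSG00000030088.16, positions 90463409 to 90577185 of GRCm39) encodes cytosolic formyltetrahydrofolate dehydrogenase, an enzyme of the folate cycle that is widely used as a general astrocyte marker. A lncRNA on the same strand, Gm45901, overlaps it and could share reads with it. In the EZ at day 3 the kainate libraries held 114, 127, 144 and 150 CPM and the saline libraries 47.7, 48.5, 58.9 and 76.2 CPM. The groups did not overlap, and the log2 fold change was 1.21 (SE 0.17, adjusted p = 8.36e-07). Leaving out any mouse kept the call. These libraries come from the same mice as the PIZ contrast that Aldh1l1 was selected on. Over 24 mice its deviations from the group means correlated between the sides (r = 0.48). This test is therefore not independent of the selection.

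In the PIZ at day 3, the contrast Aldh1l1 was selected on, the kainate libraries held 127, 127, 156 and 163 CPM against 36.9 to 41.99 in saline, and the log2 fold change was 1.90 (SE 0.17). At day 7 the PIZ kainate libraries lay among the saline ones, at 37.1 to 45.1 against 33.6 to 46.1 CPM, while the EZ kainate libraries still held 90.97, 104, 126 and 149 against 34.3 to 40.9 CPM. The day 7 log2 fold changes were 1.63 (SE 0.17) in the EZ and 0.12 (SE 0.17) in the PIZ, which differ by 1.52. At day 14 the EZ kainate libraries held 32.5, 39.1 and 40.9 CPM and, in mouse 27, 78.3 CPM, against 36.7 to 39.96 in saline. The groups overlapped, and the change of 0.33 (SE 0.17) did not pass (adjusted p = 0.309). In the PIZ at day 14 it was -0.07 (SE 0.17, adjusted p = 0.999).

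Ntsr2 (ENSMUSG00000020591.12, chromosome 12, plus strand, 16703383 to 16710243), a neurotensin receptor found mainly on astrocytes, went the other way. Its EZ kainate libraries at day 3 held 31.1, 33.3, 46.0 and 49.5 CPM and its saline libraries 101, 106, 112 and 119 CPM. All kainate libraries lay below all saline ones, and the log2 fold change was -1.45 (SE 0.15, adjusted p = 5.58e-09), the strongest fall among the 10. In the PIZ of the same mice the kainate libraries held 58.6, 65.4, 83.5 and 103 CPM against 91.1 to 108 in saline. These groups overlapped and the change of -0.38 (SE 0.14) missed the threshold (adjusted p = 0.0526). At day 7 the EZ kainate libraries held 64.3, 90.8, 104 and 111 CPM against 103 to 116 in saline, a change of -0.24 (SE 0.14, adjusted p = 0.161), and at day 14 it was -0.08 (SE 0.14, adjusted p = 0.802).

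Lgi4 (ENSMUSG00000036560.15, chromosome 7, plus strand, 30758749 to 30770360) encodes a secreted leucine-rich repeat protein known from glial signalling to Adam22 in peripheral nerve. Fxyd3 is annotated on its opposite strand. Its clearest change was on the uninjected side. In the PIZ at day 3 the kainate libraries held 63.2, 70.2, 73.6 and 88.3 CPM and the saline libraries 28.2, 32.7, 32.7 and 40.7 CPM, without overlap (log2 fold change 1.14, SE 0.12, adjusted p = 4e-08). The EZ kainate libraries reached about the same level, 60.8 to 77.03 CPM, but the saline libraries stood at 48.3 to 69.6, and the change of 0.32 (SE 0.12) was not past the threshold (adjusted p = 0.026). At day 7 the EZ change was 0.66 (SE 0.12, adjusted p = 1.82e-05), with kainate at 58.0 to 75.8 and saline at 37.8 to 44.6 CPM. Without kainate mouse 21 that change was 0.58, just under 1.5-fold.

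The RefSeq promoter windows of these genes were searched for motifs, since the genes parted in direction. Windows were matched for 8 of the 10 genes, and the 250 bases before the start were read on both strands. Each gene had 1 RefSeq start, and other annotated starts were not searched. For Aldh1l1 that start appears to lie inside the gene span given above, judged from the build shift of Slc6a11 on the same chromosome. Of these 8, Slc1a3 and Ntsr2 each held 1 STAT site (TTCNNNGAA, present in 7.02% of 32851 windows), Gja1 held 1 AP-1 site (TGANTCA, 6.75%), and none held the NFI motif TTGGCA (12.3%) or the SOX core ACAATG (10.7%). The windows of Aldh1l1, which rose, of Slc1a3, which rose later, and of Ntsr2, which fell, are shown 5′ to 3′ on the gene's strand with the STAT match in capitals. They lie on GRCm38.p6 at chr6:90550543-90550792 (plus strand), chr15:8710808-8711057 (minus strand) and chr12:16653220-16653469 (plus strand). The matches begin 96 bases before the start in Slc1a3 and 62 bases before it in Ntsr2, and are given as letters found and not as bound sites.
Aldh1l1: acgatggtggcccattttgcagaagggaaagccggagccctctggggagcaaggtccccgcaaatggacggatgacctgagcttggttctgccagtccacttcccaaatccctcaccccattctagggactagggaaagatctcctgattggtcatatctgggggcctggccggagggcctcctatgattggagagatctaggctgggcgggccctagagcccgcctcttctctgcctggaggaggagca
Slc1a3: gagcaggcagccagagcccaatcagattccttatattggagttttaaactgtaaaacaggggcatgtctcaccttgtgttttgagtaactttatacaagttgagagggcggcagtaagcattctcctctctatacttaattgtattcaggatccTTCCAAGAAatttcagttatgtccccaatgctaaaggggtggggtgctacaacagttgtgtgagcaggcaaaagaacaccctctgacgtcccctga
Ntsr2: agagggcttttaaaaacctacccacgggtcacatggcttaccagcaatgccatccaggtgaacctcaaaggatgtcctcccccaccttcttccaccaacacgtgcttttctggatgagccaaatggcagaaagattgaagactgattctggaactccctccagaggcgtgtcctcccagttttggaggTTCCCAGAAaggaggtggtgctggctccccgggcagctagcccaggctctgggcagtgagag

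Both glutamate transporters of astrocytes changed, one down at day 3 and the other up at day 7. Slc1a2 (ENSMUSG00000005089.16, chromosome 2, plus strand, 102488574 to 102621129) carries most glutamate uptake in the forebrain. At day 3 the EZ kainate libraries held 1384, 1697, 1988 and 2290 CPM and the saline libraries 3338 to 3754 CPM. Every kainate library was below every saline library, and the change was -0.95 (SE 0.14, adjusted p = 2.1e-06). In the PIZ the kainate values of 2400, 2423, 2867 and 3044 CPM overlapped the saline range of 2813 to 3989 CPM (-0.34, SE 0.14, adjusted p = 0.0746). At day 7 the EZ kainate libraries spread from 2415 to 4597 CPM on either side of saline (3232 to 3542 CPM), with a change of 0.01 (SE 0.14, adjusted p = 0.975). Mice 21 and 35 lay below the saline range there and mice 23 and 26 above it.

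Slc1a3 (ENSMUSG00000005360.15, chromosome 15, minus strand, 8663604 to 8741595), the other astrocytic glutamate transporter and a gene also of radial glia, was not called down in any comparison with saline. Its EZ kainate libraries at day 3 held 820 to 1070 CPM against 697 to 874 in saline (0.27, SE 0.12, adjusted p = 0.0524). At day 7 they held 1024, 1074, 1205 and 1214 CPM against 624, 643, 672 and 692 CPM, without overlap (0.78, SE 0.12, adjusted p = 7.76e-07). At day 14 mouse 27 held 1145 CPM and the other kainate mice 683, 689 and 691, inside the saline range of 644 to 742 CPM. In the PIZ the changes were 0.29, 0.04 and -0.19 at days 3, 7 and 14 (SE 0.12 each, adjusted p = 0.0678, 0.904 and 0.923).

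Glul (ENSMUSG00000026473.17, chromosome 1, plus strand, 153775690 to 153785469) encodes glutamine synthetase, which completes the recycling of glutamate. Its EZ kainate libraries at day 3 held 771, 900, 902 and 1003 CPM against 1294 to 1485 in saline, without overlap (-0.64, SE 0.13, adjusted p = 0.000145). This was 0.64 of the saline level and close to the fold threshold, and the call was lost without kainate mouse 30 (-0.57). In the PIZ mice 30, 38 and 44 held 767, 883 and 911 CPM and mouse 42 held 1345, against 1165 to 1570 in saline. The change of -0.56 (SE 0.13, adjusted p = 0.00197) was under 1.5-fold. It was past both thresholds without kainate mouse 42 (-0.75, adjusted p = 8.3e-05) or without saline mouse 18 (-0.64, adjusted p = 0.00129). At day 7 all EZ kainate libraries of Glul still lay below saline, at 1074 to 1221 against 1325 to 1455 CPM. That change was not called (-0.33, SE 0.13, adjusted p = 0.0304), nor was that at day 14 (-0.24, SE 0.13, adjusted p = 0.345). Reads from the pseudogene Glns-ps1 cannot be fully separated from those of Glul.

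Slc6a11 (ENSMUSG00000030307.9, chromosome 6, plus strand, 114108200 to 114226913), the GABA transporter of astrocytes, fell on both sides at day 3. The EZ kainate libraries held 45.99, 55.2, 65.4 and 66.4 CPM against 106 to 127 in saline (-0.998, SE 0.19, adjusted p = 5.26e-05). In the PIZ they held 67.3, 70.8, 96.8 and 120 CPM against 127 to 180 CPM (-0.69, SE 0.19, adjusted p = 0.00667). The groups did not overlap on either side. The PIZ call was lost without any of kainate mice 30 and 44 and saline mice 18, 29 and 41 (-0.74 to -0.57, adjusted p = 0.011 to 0.0447), and with the compared groups fitted alone (adjusted p = 0.0166). At days 7 and 14 the EZ changes were -0.37 and -0.32 (SE 0.19 each, adjusted p = 0.0917 and 0.378).

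The connexins moved less. Gja1 (ENSMUSG00000050953.11, chromosome 10, plus strand, 56253241 to 56278609), which encodes the principal gap junction protein of astrocytes, held 175, 196, 205 and 254 CPM in the EZ of kainate mice at day 3 against 257, 291, 313 and 320 CPM in saline. No values overlapped, and the change of -0.51 (SE 0.13, adjusted p = 0.00148) was under 1.5-fold. Without kainate mouse 44 it was -0.62 (adjusted p = 0.00031) and was called. In the PIZ the kainate values spread from 203 to 381 CPM around saline values of 204 to 234 (0.36, SE 0.13, adjusted p = 0.0429). In the EZ at day 7 Gja1 held 250 to 338 CPM in kainate against 215 to 241 in saline mice. This rise was not called (0.32, SE 0.13, adjusted p = 0.0353). Gjb6 (ENSMUSG00000040055.10, chromosome 14, minus strand, 57360757 to 57371087), which encodes a further astrocytic connexin, changed by -0.20, 0.33 and -0.13 in the EZ and by 0.20, 0.11 and -0.27 in the PIZ at days 3, 7 and 14 (SE 0.14 each), none of them called.

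Aqp4 (ENSMUSG00000024411.12, chromosome 18, minus strand, 15522451 to 15544039), the water channel of the astrocyte endfoot, rose on both sides. At day 3 the EZ kainate libraries held 539, 578, 580 and 845 CPM and the saline libraries 290, 313, 352 and 435 CPM. The groups did not overlap (0.87, SE 0.27, adjusted p = 0.00736), but the call was lost without any of kainate mice 30 and 38 and saline mice 18, 37 and 41 (0.70 to 0.91, adjusted p = 0.012 to 0.0432). In the PIZ at day 3 the kainate libraries held 421, 430, 545 and 559 CPM against 158 to 207 CPM (1.42, SE 0.27, adjusted p = 0.000234).

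At day 7 the EZ kainate libraries of Aqp4 held 734, 748, 808 and 880 CPM against 168, 206, 207 and 271 CPM (1.90, SE 0.28, adjusted p = 5.04e-07), and in the PIZ 188 to 293 against 160 to 203 CPM (0.51, SE 0.27, adjusted p = 0.379). At day 14 in the EZ, mouse 27 held 995 CPM and the other kainate mice 230, 258 and 264, against 172 to 206 CPM in saline. All kainate libraries lay above saline and the change was called (1.20, SE 0.27, adjusted p = 0.00483). Without mouse 27 the change was 0.40 (adjusted p = 0.819), and without saline mouse 24, 28, 31 or 39 it also missed the threshold, the highest estimate being 1.25. With each mouse as a random block, or with the compared groups fitted alone, Aqp4 was not called and neither was any other gene. In the EZ of mouse 27 the 10 astrocyte markers, which include Aqp4, summed to 13110 CPM against 7314 to 8028 in the other kainate mice. Its 8 microglia markers summed to 3443 against 536 to 792 CPM, and its 5 pan-neuronal markers to 2402 against 3311 to 4472 CPM. Their part in its Aqp4 value was not tested.

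Counted together, 6 of the 10 genes were called in the EZ at day 3, 2 up and 4 down, where 24.7% of all tested genes were called. All kainate libraries lay above all saline libraries in 2 of the 10 and below them in 5, against 23.9% and 18.5% of all genes. In the EZ at day 7, 4 were called, all up, where 32.5% of all genes were called, a share near that of the 10 genes. In the EZ at day 14 the count was 1 (background 2.36%), and without mouse 27 it was 0, with 7 genes called in all. In the PIZ 4 were called at day 3 (background 8.69%), none at day 7 (0.201%) and none at day 14 (0.014%). None of the 10 had an unadjusted p below 0.05 at day 7 or day 14, beside 3104 and 1277 of all 21390 genes. The median change of the 10 genes was -0.35, 0.32 and -0.07 in the EZ at days 3, 7 and 14 and 0.25, 0.12 and -0.09 in the PIZ, beside medians over all genes of 0.00 to 0.03. These counts hold the Aldh1l1 contrasts it was selected on, the EZ at day 7 and the PIZ at day 3, and besides Aldh1l1 3 genes were called in each. The EZ count at day 3 also includes Aldh1l1, whose test there is not independent of its selection.

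**Figure D2:**
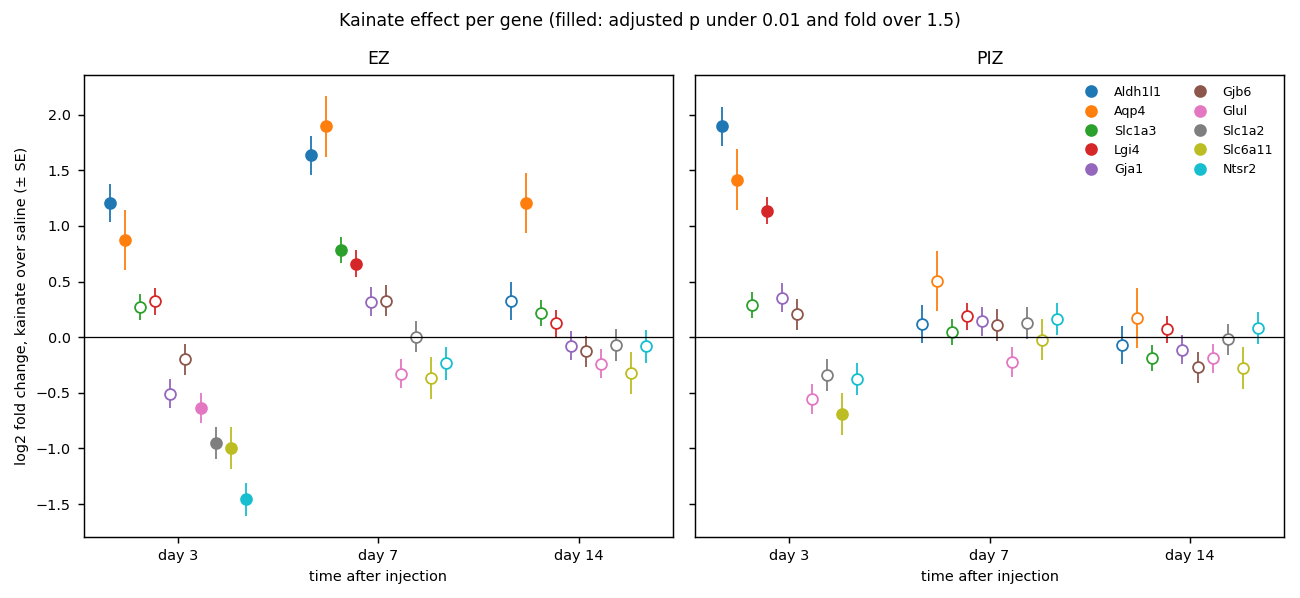
Log2 fold change of kainate over saline with its SE for the 10 genes at each day, in the EZ (left) and the PIZ (right). Filled points passed both thresholds; the EZ at day 3 runs from -1.45 for Ntsr2 to 1.21 for Aldh1l1, and the PIZ at days 7 and 14 holds no filled point.

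The saline mice were compared side against side, because their EZ was also injected. Averaged over the days none of the 10 genes was called, where 0.0234% of all genes were called (edgeR). The unadjusted p was below 0.05 in 2 of the 10 genes and in 1908 of all 21390 genes. Lgi4 was 0.38 higher in the saline EZ (SE 0.07, adjusted p = 0.0138). With each day taken alone, a comparison added after these values were seen, the saline EZ at day 3 held 48.3 to 69.6 CPM of Lgi4 against 28.2 to 40.7 in the saline PIZ, which was called (0.74, SE 0.12, adjusted p = 0.00278), as 1 of 6 genes in all (0.0281%).

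Aqp4 (0.92, SE 0.27, adjusted p = 0.353), Aldh1l1 (0.59, SE 0.17, adjusted p = 0.353) and Gja1 (0.40, SE 0.13, adjusted p = 0.467) were higher in the EZ than in the PIZ of all 4 saline mice at day 3 without passing. For Aldh1l1 this comparison uses the saline PIZ group of the contrast it was selected on. With each mouse as a fixed block, Lgi4 was called (0.74, adjusted p = 0.00557) and Aqp4 was at an adjusted p of 0.0243. At days 7 and 14 the side differences of the 10 genes in saline mice ran from -0.15 to 0.30, all with an adjusted p of 1. Of 25 reactive astrocyte genes, 2 were called between the saline sides averaged over the days, where 0.0234% of all genes were. Gfap, the intermediate filament of reactive astrocytes, was 1.28 higher in the saline EZ over the days (SE 0.23, adjusted p = 0.00852), and Aspg by 1.32 (SE 0.23, adjusted p = 0.00764). These day 3 saline levels enter every EZ comparison at day 3. Set against the saline PIZ, the day 3 EZ changes were 1.80 for Aldh1l1, 1.80 for Aqp4, 1.06 for Lgi4 and -0.11 for Gja1, with Lgi4 then called and Gja1 not (adjusted p = 7.88e-09 and 0.483).

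**Figure D3:**
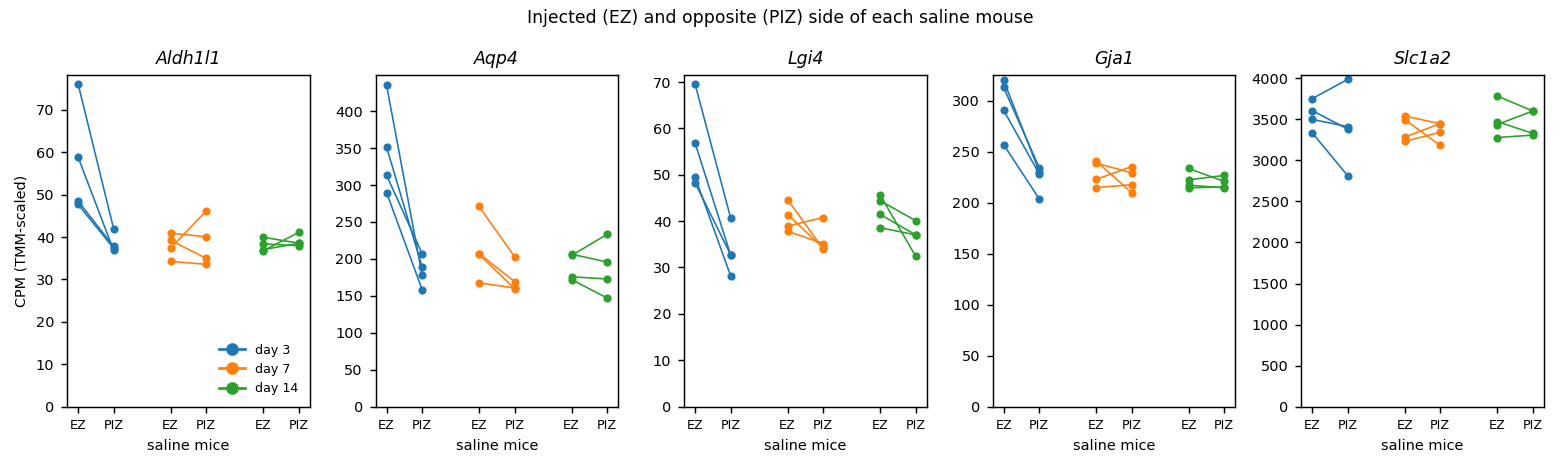
CPM of Aldh1l1, Aqp4, Lgi4, Gja1 and Slc1a2 in the EZ and PIZ of each saline mouse, with a line per mouse and colours for days 3, 7 and 14. At day 3 Aldh1l1, Aqp4, Lgi4 and Gja1 lie higher in the EZ than in the PIZ of every mouse (Lgi4 at 48.3 to 69.6 against 28.2 to 40.7 CPM), which Slc1a2 does not.

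Whether the kainate effect differed between the sides was tested as an interaction. At day 3 the differences (EZ minus PIZ) of the 9 genes other than Aldh1l1 were negative, from -1.08 to -0.02, and 1 was called, where 0.0655% of all genes (14 genes) were called. That count over all genes ran from 2 to 208 as each mouse was left out, the highest without kainate mouse 44. This was Ntsr2 (-1.08, SE 0.21, adjusted p = 0.00878). Gja1 (-0.86, SE 0.18, adjusted p = 0.0192) and Lgi4 (-0.82, SE 0.17, adjusted p = 0.0176) followed. The saline EZ stood higher than the saline PIZ in 8 of the 10 genes at that day. With each mouse as a fixed block in edgeR, Gja1 was called (-0.83, SE 0.15, adjusted p = 0.00843) and Ntsr2 was not (-1.07, SE 0.21, adjusted p = 0.014). With the mouse as a random block in limma-voom, Ntsr2 (adjusted p = 0.00322), Gja1 (adjusted p = 0.00734) and Lgi4 (adjusted p = 0.00674) were called. The Ntsr2 call was also lost when any of mice 18, 29, 30, 37, 38, 41 and 42 was left out (-1.15 to -0.96, adjusted p = 0.0123 to 0.081).

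At day 7, Aqp4 (1.39, SE 0.38, adjusted p = 0.00792) and Slc1a3 (0.74, SE 0.16, adjusted p = 0.00272) had a larger EZ effect, where 9.89% of all genes differed. Aldh1l1 had been selected on this difference and is not counted. Both were also called with each mouse as a fixed or as a random block. Without kainate mouse 21 neither was called, and 1 gene of all those tested. Aqp4 was lost when any of mice 20, 21, 23, 33, 34, 35 and 89 was left out (1.30 to 1.48, adjusted p = 0.0152 to 0.0443), and Slc1a3 when any of mice 20, 21, 35 and 89 was left out (0.66 to 0.73). At day 14 none of the 10 and 0 of all genes were called by edgeR (0%), with 2 of the 10 and 1562 of all genes at an unadjusted p below 0.05. DESeq2 called none of the 10 and 2 of all genes.

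**Figure D4:**
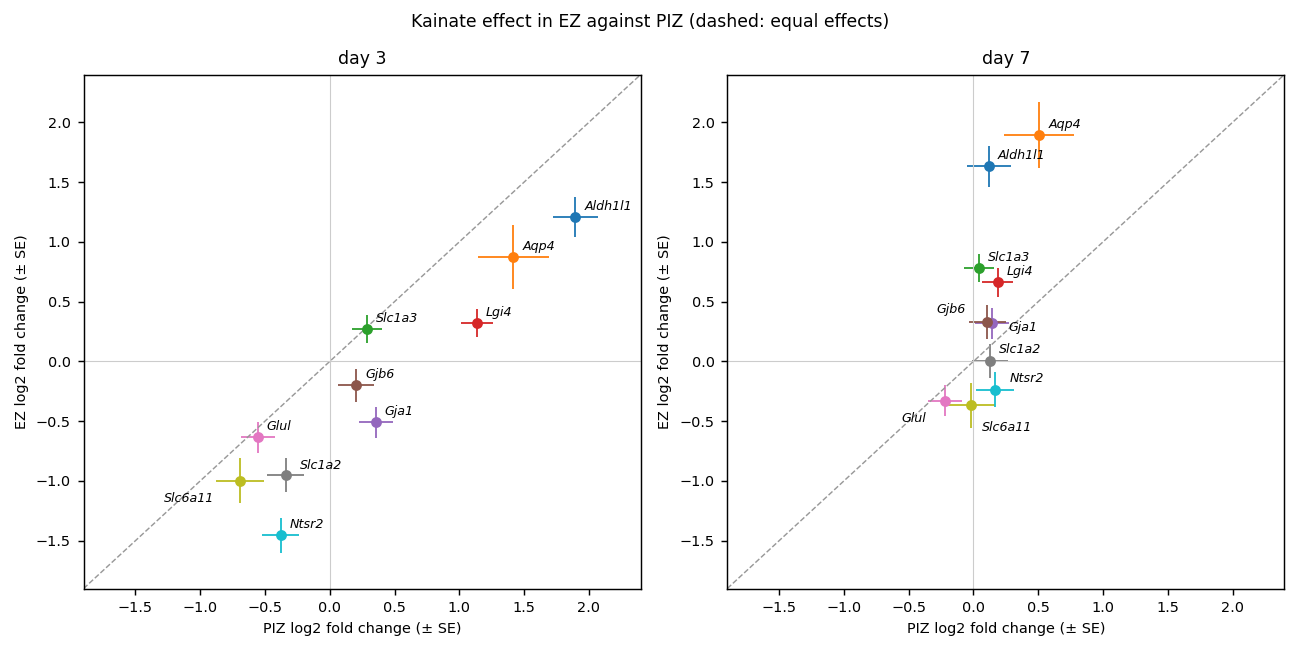
Log2 fold change of kainate over saline in the EZ (vertical) against the PIZ (horizontal), with SEs, at day 3 and day 7. Points on the dashed line have equal effects. At day 3 all 10 lie on or below it. At day 7 Aldh1l1, Aqp4, Slc1a3, Lgi4, Gjb6 and Gja1 lie above it, and Slc1a2, Glul, Ntsr2 and Slc6a11 below it.

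Across time in the EZ, the effects of the 9 genes other than Aldh1l1 were more positive at day 7 than at day 3, by 0.31 to 1.22. Of these, 1 was called, where 0.145% of all genes were. Ntsr2 rose back by 1.22 (SE 0.21, adjusted p = 0.00184), followed by Slc1a2 at 0.95 (SE 0.20, adjusted p = 0.0142) and Gja1 at 0.83 (SE 0.18, adjusted p = 0.0217), which were not called. From day 7 to day 14 in the EZ, 0.271% of all genes (58 genes) were called, and 1 to 4087 as each mouse was left out. Aldh1l1 differed by -1.31 (SE 0.24), given as a description since it was selected on the EZ at day 7. Slc1a3 (-0.56, SE 0.16, adjusted p = 0.0245) and Lgi4 (-0.54, SE 0.17, adjusted p = 0.0334) were not called. Without mouse 27, where 4087 genes were called in all, the changes of Slc1a3 (-0.78, adjusted p = 2.06e-05) and Aqp4 (-1.49, adjusted p = 8.16e-06) were called. From day 3 to day 7 in the PIZ, Lgi4 was called (-0.95, SE 0.17, adjusted p = 0.00956), where 0.0234% of all genes (5 genes) were, and Aldh1l1 differed by -1.78 (SE 0.24) by description. The call of Lgi4 was lost when any of 13 of the 16 mice was left out (-1.01 to -0.83, adjusted p = 0.0115 to 0.0549). Both EZ day differences share the day 7 groups.

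The 10 genes fell into sets by their levels across the 48 libraries, which differ in group and of which each mouse gave a pair. Pearson's r of log2 CPM was 0.89 between Aldh1l1 and Lgi4, 0.87 between Aldh1l1 and Aqp4 and 0.82 between Aldh1l1 and Slc1a3. It was 0.90 between Slc1a2 and Ntsr2, 0.80 between Ntsr2 and Slc6a11 and 0.71 between Gja1 and Gjb6. Aldh1l1, Aqp4, Slc1a3 and Lgi4 were each negatively correlated with Slc1a2, Ntsr2 and Slc6a11, from -0.37 for Slc1a3 and Slc1a2 to -0.76 for Aqp4 and Slc6a11, whereas Gja1 and Gjb6 were positively correlated with those 4 genes (0.26 to 0.60), and 19 of the 45 pairs were below 0. After the group means were removed the values ran from -0.54 to 0.78, with the highest for Glul and Gja1.

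**Figure D5:**
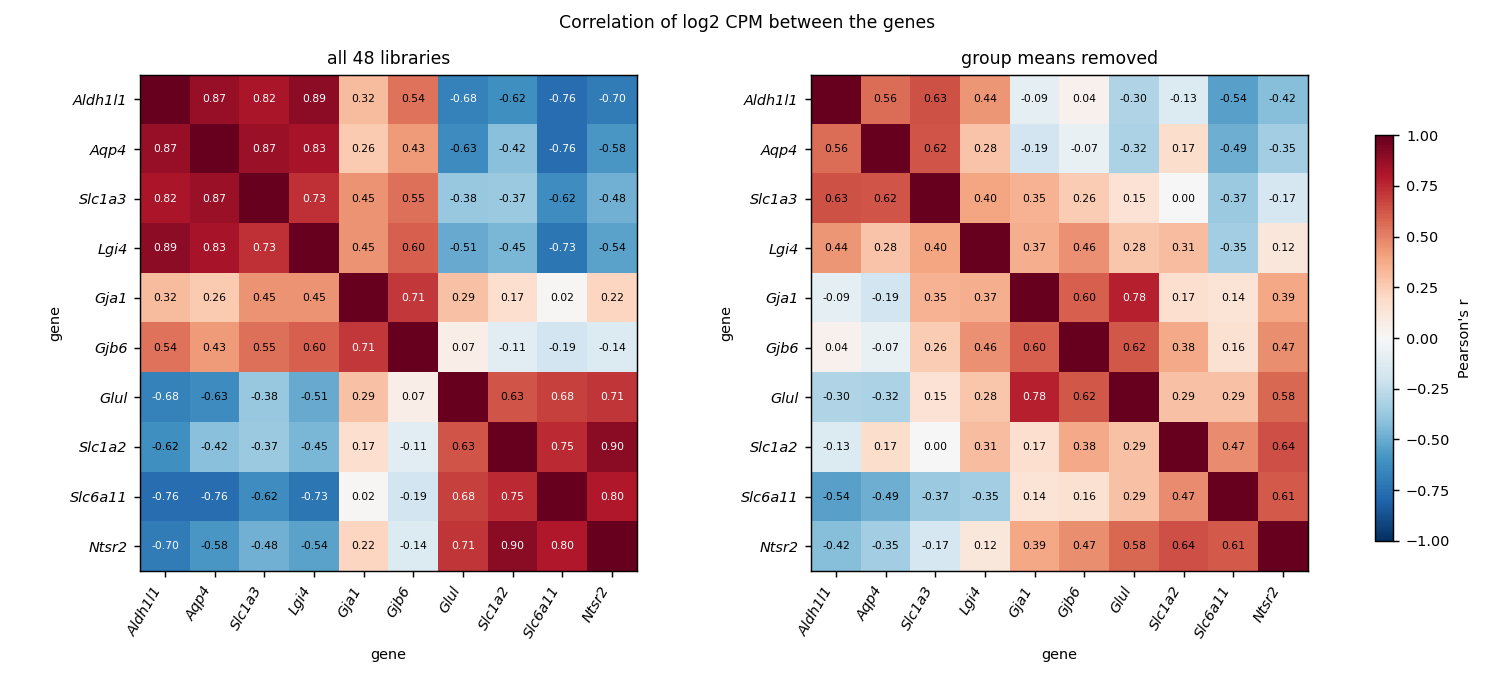
Pearson's r of log2 CPM between the 10 genes over 48 libraries (left) and after removing the 12 group means (right), on a scale from -1 (blue) to 1 (red). On the left a block of Aldh1l1, Aqp4, Slc1a3 and Lgi4 (0.73 to 0.89) stands against a block of Glul, Slc1a2, Slc6a11 and Ntsr2 (0.63 to 0.90).

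Among the genes most like Aldh1l1 over 48 libraries were Dhrs1 (r = 0.97), S100a13 (0.96), H19 (0.96) and S100a16 (0.95). With group means removed they were S100a16 (0.86), Serpina3n (0.84), Arhgdib (0.84), Serpina3m (0.83) and S100a6 (0.83). Serpina3n is a widely used marker of reactive astrocytes and at day 3 changed by 2.86 in the EZ and 3.36 in the PIZ (SE 0.48 and 0.49, adjusted p = 9.76e-06 and 6.62e-06). For the other genes the closest were Ntsr2 for Slc1a2 (0.90), Itprid2 for Slc1a3 (0.94), Glns-ps1 for Glul (0.96), Slc14a1 for Aqp4 (0.97), Acss1 for Gja1 (0.79), Prex2 for Gjb6 (0.76), Gm37885 for Ntsr2 (0.96), Lsamp for Slc6a11 (0.92) and Hspb6 for Lgi4 (0.91). These are descriptions over libraries that differ in group.

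A wider list of 35 astrocyte genes, listed with earlier results known, also moved in both directions. At day 3 in the EZ, where 24.7% of all genes were called, 8 were called up and 7 down, with a median of 0.20 beside 0.03 over all genes. F3, the tissue factor gene, rose by 1.06 (SE 0.12, adjusted p = 2.11e-08) and Aldoc, the astrocytic aldolase, fell by 0.92 (SE 0.13, adjusted p = 8.97e-07). At day 7 (32.5% of all genes), 18 were up and none down (median 0.61), and Aldoc was at 0.17 (adjusted p = 0.269). In the PIZ at day 3 (8.69%), 10 were up and 1 down (median 0.35), with the potassium channel gene Kcnj10 at the smallest p (1.30, SE 0.19, adjusted p = 8.11e-06). None was called in the EZ at day 14 (2.36% of all genes) or in the PIZ at days 7 and 14 (0.201% and 0.014%). Of 25 reactive astrocyte genes, 21, 23 and 12 were up in the EZ at days 3, 7 and 14, and 16 in the PIZ at day 3, with none down, where 24.7%, 32.5%, 2.36% and 8.69% of all genes were called. The EZ calls at day 14 were not stable, since no gene was called with each mouse as a random block (limma-voom) or with the compared groups alone, and 7 genes without mouse 27. The call of smallest p was that of Nes, an intermediate filament gene, in the EZ at day 3 (2.81, SE 0.31, adjusted p = 2.44e-08) and that of Aspg in the PIZ (3.57, SE 0.40, adjusted p = 9.5e-08). Gfap rose by 1.28 and 3.31 in the EZ at days 3 and 7 and by 3.65 in the PIZ at day 3 (SE 0.40, 0.43 and 0.44, adjusted p = 0.0079, 7.92e-08 and 3e-07).

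Partner genes of the 4 functions were read from further lists, whose counts stand beside 24.7%, 32.5% and 8.69% of all genes called in the EZ at day 3, the EZ at day 7 and the PIZ at day 3. In glutamate and GABA handling (19 genes), 3 were up and 3 down in the EZ at day 3, 4 up and 5 down at day 7, and 2 up and 1 down in the PIZ at day 3. Abat, which breaks down GABA, fell on both sides at day 3 (-1.12 in the EZ, SE 0.11, adjusted p = 4.6e-09, and -0.74 in the PIZ, SE 0.11, adjusted p = 8.92e-06). In the folate cycle (19 of 20 genes tested), 6 were up and none down in the EZ at day 3 and at day 7, which at day 7 is near the share of all genes. Aldh1l2, the mitochondrial relative of Aldh1l1, rose by 1.73, 3.05 and 1.49 in the EZ at days 3, 7 and 14 (SE 0.33, 0.35 and 0.34, adjusted p = 6.48e-05, 2.8e-08 and 0.00569, the day 14 call being lost with the mouse as a random block or the compared groups alone) and by 2.22 in the PIZ at day 3 (SE 0.35, adjusted p = 1.61e-05).

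Of the 18 other connexins, 9 were tested, and 3 were up and 2 down in the EZ at day 3. Gjd2, the neuronal connexin, fell by 2.91 (SE 0.46, adjusted p = 4.76e-06), Gjb1 of oligodendrocytes rose by 1.36 (SE 0.27, adjusted p = 0.00011) and Gjc3 was at -0.70 (SE 0.24, adjusted p = 0.0172). None was called in the PIZ at day 3. Among 13 endfoot partners of Aqp4, 4 were up and 1 down in the EZ at day 3 and 6 up and 1 down at day 7. Kcnj10 rose by 0.99 (SE 0.19, adjusted p = 6.83e-05) and 1.602 (SE 0.19, adjusted p = 3.85e-08), and Agrn, an extracellular matrix gene of the endfoot, was at 0.20 and 0.10. In the PIZ at day 3, 1 was up, Kcnj10. Of the Lgi family and its Adam receptors (6 genes), 4 were down in the EZ at day 3, among them Lgi1 (-0.93, SE 0.27, adjusted p = 0.00481), a neuronal gene, and Adam22 (-0.63, SE 0.16, adjusted p = 0.00126), the receptor of Lgi4. The strongest p in that list was that of Adam11 (-1.03, SE 0.23, adjusted p = 0.000357). Of the neurotensin system (4 genes), Sort1 (-1.04, SE 0.15, adjusted p = 1.61e-06) fell in the EZ at day 3. The other called gene, the further neurotensin receptor Ntsr1, named after its values were seen, also fell (-3.46, SE 0.58, adjusted p = 1.06e-05), and Sorl1 was at -0.50 (adjusted p = 0.00464, under 1.5-fold). None of the 4 was called in the PIZ.

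Markers of other cells moved with these changes, and their part in the results was not tested. The counts of markers called stand beside 24.7% of all genes in the EZ at day 3, 32.5% in the EZ at day 7 and 8.69% in the PIZ at day 3. All 10 astrocyte markers, 6 of which (Aldh1l1, Slc1a2, Slc1a3, Glul, Aqp4 and Gja1) are among the genes described here, passed the filter on low counts, with sums of 6249 to 14630 CPM over the 48 libraries. In the EZ at day 3 their sum was 9773 to 11560 CPM in kainate against 8225 to 11120 in saline mice, with 4 up and 3 down. In the PIZ at day 3 it was 10100 to 11840 against 6249 to 8250 CPM, with 4 up and none down. Of 8 microglia markers, 7 were up in the EZ at day 3, with sums of 1568 to 2697 against 559 to 976 CPM, and 8 in the PIZ at day 3, with 1086 to 1337 against 326 to 449 CPM. The 5 pan-neuronal markers summed to 1635 to 2743 against 3978 to 4788 CPM in the EZ at day 3, with 2 down, and to 3289 to 3913 against 4235 to 5401 CPM in the PIZ, with none called. In the EZ at day 7, where Aqp4, Slc1a3 and Lgi4 rose, the astrocyte markers summed to 13050 to 14630 CPM in kainate against 7054 to 7744 in saline mice, with 5 up. All 8 microglia markers were up there (1848 to 6989 against 478 to 526 CPM), 4 of the 5 pan-neuronal markers were down (1161 to 2899 against 4029 to 5103 CPM), and of 7 markers of neural stem cells and radial glia 6 were up and 1 down (226 to 328 against 142 to 164 CPM). The proliferation markers summed to 138 to 380 CPM in the EZ of kainate mice at day 3, against 17.3 to 54.2 CPM in saline mice. Oligodendrocyte precursor markers had 4 of 5 up in the EZ at day 3 and 5 at day 7, those of meninges and fibroblasts likewise 4 of 5 and 5, and granule cell markers had 3 of 7 and 2 down, the latter near the share of all genes. Oligodendrocyte markers had none called in the EZ at day 3 and 3 of 7 up at day 7, endothelial markers 2 of 6 up on both days, and ependymal markers 3 of 5 and 2 up. On the PIZ side at day 3, 6 of 6 proliferation markers and 2 of 5 precursor and 1 of 5 ependymal markers were up and 2 of 7 granule cell markers down. The 5 choroid plexus markers, 3 of them tested, summed to 1.81 to 29.1 CPM over all libraries, and in the EZ at day 3 to 6.70 to 8.76 in kainate against 17.5 to 21.8 CPM in saline mice, with 1 of 3 down. The 10 genes together made up 0.488% to 0.588% of the assigned reads in the EZ of kainate mice at day 3, against 0.608% to 0.700% in saline mice, and 0.665% to 0.801% against 0.582% to 0.637% at day 7.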

How the data were processed

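The deposited file holds raw counts of reads per gene for 48 poly-A libraries. As the methods describe, the authors trimmed reads with fastp 0.20.1, aligned them to GRCm39 with HISAT2 2.2.1, counted them by strand with featureCounts of Subread 1.6.4, and tested with DESeq2 1.32.0 in R 4.1.1. Library totals were 17762656 to 25712975 counts (median 22108562.5), and 98.9% of the gene identifiers matched the gene annotation used for names, lengths and positions on GRCm39.

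Genes were filtered with filterByExpr and scaled by TMM. The 12 group means were fitted over all libraries with edgeR 4.0.16 (limma 3.58.1, R 4.3.3) and its quasi-likelihood test. Calls needed both a change over 1.5-fold and an adjusted p (Benjamini-Hochberg) below 0.01. CPM and RPKM use the TMM library sizes, and RPKM the summed exon length. Correlations used log2 CPM with a prior count of 2.

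Members and lists were chosen with earlier results of these data known. All 10 genes are named. From each list the 2 genes of highest mean CPM and the called gene of smallest p at day 3 on each side are named. The genes most like Aldh1l1 are the 5 of highest r on each scale, and for each other gene the 1 of highest r. Any further gene was named after its values were seen. Some genes that this rule names are not reported here, though the list counts include them.

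Replicate numbers are mouse numbers, so the EZ and PIZ libraries of a number are from 1 animal. The correlation of their deviations from the group means was -0.0536 to 0.376 (median 0.208). Alternatives were other scalings and filters, DESeq2 1.42.0, limma-voom, a fold threshold test (glmTreat), mouse as a block, the compared groups alone, and leaving out each mouse. Saline comparisons by day and the saline PIZ as reference were added after seeing the data. Promoter windows are from RefSeq on GRCm38.p6, with no coordinates converted. The strand settings that the methods give for alignment and for counting differ in direction, and reverse-strand counting was taken as stated. Reads in pseudogenes and same-strand overlapping genes cannot be assigned with certainty.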

Additional observations from a re-analysis of the deposited data

Results flagged for a closer look

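Of 120 groups of 4 libraries, 7 held a library far from the other 3 (Dixon's test), where chance flags about 1 in 20 groups, or 6 groups. Mouse 27 of the kainate group at day 14 was that library 4 times, for Aqp4 in the EZ (994.7 CPM against 230.0 to 264.1), Slc1a3 in the EZ (1145 against 682.8 to 691.0 CPM), Aldh1l1 in the PIZ (45.43 against 33.98 to 34.92 CPM) and Ntsr2 in the PIZ (122.9 against 102.7 to 104.6 CPM). Aqp4 of kainate mouse 30 in the EZ at day 3 stood at 844.5 CPM against 539.1 to 580.3. Glul of kainate mouse 21 in the EZ at day 7 stood at 1221 CPM against 1074 to 1093, and Lgi4 of saline mouse 89 in the PIZ at day 7 at 40.77 CPM against 34.02 to 35.17.

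The kainate effect differed between the sides, by the interaction test, for Ntsr2 at day 3 (-1.08) and for Slc1a3 (0.74) and Aqp4 (1.39) at day 7. It differed between days 3 and 7 for Ntsr2 in the EZ (1.22) and Lgi4 in the PIZ (-0.95). These calls were not stable. With each mouse as a fixed block in edgeR Ntsr2 at day 3 had an adjusted p of 0.014 and was not called, while with a random block in limma-voom it was (adjusted p = 0.00322). It was also lost without any of 7 mice or with the compared groups alone. Neither day 7 side difference was called without kainate mouse 21. The Ntsr2 day difference was lost with the compared groups alone, and that of Lgi4 without any of 13 mice. The effects between days share no control samples.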

How the results depend on the processing

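Of 141 counts of called members under other settings, 109 stayed within 1.5 times the main count, 20 were lower and 12 higher. The cause was not tested. A count of 0 that stayed 0 was taken as unchanged. The PIZ at days 7 and 14, the side difference at day 14 and the saline sides had a main count of 0. Single genes were followed under library size scaling, DESeq2, the saline PIZ reference, the compared groups alone and leave-one-out. No called change reversed there. The 141 counts include Aldh1l1, also in the contrasts it was selected on. The test against a 1.5-fold threshold (glmTreat) called 2 members for each of EZ day 3, EZ day 7 and PIZ day 3, 0 for EZ day 14, and 0 in the side differences at days 3 and 7 and in the 3 day differences. Fitting the compared groups alone gave 0 in the EZ at day 14, in the side difference at day 3 and in both EZ day differences. In the PIZ day difference the call of Lgi4 was then lost. Without a filter the side difference at day 3 and the EZ difference of days 14 and 7 gave 0 and the PIZ day difference 1, and library size scaling also gave 1 there. With 10 counts in every library the EZ difference of days 7 and 3 gave 2. DESeq2 and an adjusted p under 0.05 each gave 3 in the side difference at day 3 and 3 in the EZ difference of days 7 and 3. Limma-voom with quality weights gave 5 in both of these, 3 in the EZ difference of days 14 and 7, 1 in the PIZ at day 7 and 0 in the EZ at day 14.

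With the mouse as a random replicate block (consensus correlation 0.163), 3 members were called in the side difference at day 3 and 0 in the EZ at day 14. As a fixed block it gave 1 in the side difference at day 3, and at day 7 Slc1a3 and Aqp4 were called, leaving Aldh1l1 aside. Saline sides at day 3 alone gave 1 member, also with the replicate block. Leaving out each mouse gave 4 to 7 members in the EZ at day 3, 3 to 4 at day 7, 0 to 1 at day 14 and 3 to 5 in the PIZ at day 3. It gave 0 to 2 and 0 to 3 in the side differences at days 3 and 7, 1 to 3 and 0 to 3 in the EZ day differences, 1 to 2 in the PIZ day difference and 0 elsewhere.

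Library size scaling shifted the median of all genes in the EZ at day 3 by 0.13, and the calls of Glul there (-0.51) and of Slc6a11 in the PIZ (-0.60) were lost. Counts over all genes also moved. The side difference at day 3 had 14 genes, 98 with DESeq2, 1879 with voom and 38 with the fixed block. The EZ at day 3 had 5280 genes and 2242 with glmTreat, the EZ at day 7 had 6960 and 3448, the EZ at day 14 had 504 and 137 (58 with voom), and the PIZ at day 3 had 1858 and 601. The side difference at day 7 had 2115 genes, 0 with glmTreat and 5126 with voom, the EZ difference of days 14 and 7 had 58, 898 with DESeq2 and 6301 with voom, and that of days 7 and 3 had 31, 98 with DESeq2 and 1225 with voom. The PIZ at day 7 had 43 genes, 195 with DESeq2 and 822 with voom. Changes under 1.5-fold were left uncalled by the rule, whatever their p.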
